A study of Homo sapiens with 5 samples.

Results

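TEAD4 peaks that carry both a TEAD motif and an AP-1 motif near their summit were described in LX-2 cells, a human hepatic stellate cell line with a myofibroblast-like phenotype. A peak belonged to this class when the 201 bp window centred on its summit held exactly 1 copy of the 7-base TEAD core ACATTCC and at least 1 copy of the 7-base AP-1 motif TGACTCA or TGAGTCA, each on either strand and each lying whole within the window. Of the 21113 peaks in the list, 892 met this rule (4.22%, Wilson 95% interval 3.96 to 4.5%). The remainder fell into 3575 peaks with 1 TEAD core and no AP-1 motif (TEAD-only), 4415 with AP-1 and no TEAD core (AP-1-only), 11849 with neither and 382 with 2 or more TEAD cores. The AP-1 motif was the consensus of the phorbol ester response element, and the core consisted of the first bases of the TEAD site in the reporter used by the study.

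The ChIP-seq was made with an antibody against TEAD4 from LX-2 cells given the solvent DMSO, the only condition in these samples, in 3 biological replicates. There were 2 input samples, 1 for replicates 1 and 2 and 1 for replicate 3. The authors kept replicates 1 and 3, the only ones that their reproducibility analysis found concordant enough, and a single list combines them. The list has no column per replicate, so no spread between replicates can be given, the depth per sample is unknown, and p-values below measure variation over peaks. LX-2 is 1 immortalized line in culture, and its cell type markers cannot be checked in a list of binding sites.

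TEAD proteins bind DNA through their TEA domain and depend on the coactivators YAP and TAZ, which enter the nucleus when Hippo signaling is low, for example in spread cells on stiff matrix. AP-1 factors are dimers of FOS and JUN proteins that bind a nearly palindromic site and respond to growth factors, stress and cytokines. Both families act largely at enhancers, and YAP, TEAD and AP-1 are known to share many of them in fibroblasts and cancer cells. In the liver, stellate cells that turn into myofibroblasts deposit collagen, a process in which both families take part.

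Members with 1 AP-1 motif had a median of 34 bases between the motifs, and the sites printed next over-represent short gaps. Wide pairs among the strongest peaks, such as ADRA1D with 100 bases, were left out. The sites of 10 members are examples from near genes of matrix, adhesion and growth factor signaling and from the strongest peaks. Each is the hg38 reference sequence on the strand on which the TEAD core reads ACATTCC, from 5′ to 3′, with the TEAD core and the AP-1 motif in capitals, and each is named by a gene nearby.
PPP1R36, chr14:64612181-64612259, minus strand: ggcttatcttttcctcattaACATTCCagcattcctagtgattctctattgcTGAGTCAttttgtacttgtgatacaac
CCN1, chr1:85607476-85607536, minus strand: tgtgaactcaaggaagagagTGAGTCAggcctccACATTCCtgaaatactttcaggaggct
MANF, chr3:51340666-51340725, minus strand: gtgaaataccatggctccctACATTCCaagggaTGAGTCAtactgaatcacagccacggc
PLAUR, chr19:43636179-43636267, plus strand: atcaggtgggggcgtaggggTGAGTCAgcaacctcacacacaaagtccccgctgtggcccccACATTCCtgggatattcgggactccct
PDGFC, chr4:156976283-156976343, minus strand: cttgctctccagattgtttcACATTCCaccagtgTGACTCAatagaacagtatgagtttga
ITGA1, chr5:52783454-52783525, plus strand: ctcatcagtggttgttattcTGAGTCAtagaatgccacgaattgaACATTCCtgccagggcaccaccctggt
COL5A1, chr9:134670280-134670380, plus strand: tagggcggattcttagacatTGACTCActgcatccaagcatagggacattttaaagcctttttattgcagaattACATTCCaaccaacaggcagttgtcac
ITGB5, chr3:124833157-124833218, plus strand: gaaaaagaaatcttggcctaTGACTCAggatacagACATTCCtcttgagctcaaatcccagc
COL1A1, chr17:50210520-50210576, minus strand: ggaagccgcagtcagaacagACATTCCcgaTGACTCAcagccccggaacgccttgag
CCN2, chr6:131954871-131954923, minus strand: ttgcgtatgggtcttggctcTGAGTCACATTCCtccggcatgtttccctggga

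The core stood before the AP-1 motif in PPP1R36, MANF, PDGFC and COL1A1, and after it in the other sites. In the CCN2 site the motifs shared 1 base, the final A of TGAGTCA being the first A of ACATTCC. This overlap of 1 base is the only one that the letters permit, and it places AP-1 on the 5′ side of the core.

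Each motif was scarcer away from the summits. Among 42225 windows of the same length 2000 bp to either side of the peaks, 2.82% held the TEAD core, against 22.97% of the peaks. The AP-1 motif was found in 3.43% of these windows and in 25.40% of the peaks. Both together, by the same rule, were present in 47 flanking windows (0.111%, interval 0.0837 to 0.148%). With the letters of the core read backwards, 93 peaks met the rule, and with those of AP-1 read backwards, 179. Within the list, AP-1 was less common beside a TEAD core than without one. It occurred in 892 of 4467 peaks with 1 core (19.97%, interval 18.8 to 21.2%) and in 4415 of 16264 peaks with no core (27.1%, interval 26.5 to 27.8%), while 56 of 382 peaks with 2 or more cores had it (14.7%, interval 11.5 to 18.6%). These shares rest on the motifs that define the classes, and all the peaks were selected as TEAD4 peaks, so they were not tested. At the threshold of the rule, members with AP-1 in the outermost 10 bp of the window (n = 49) had a median signal value of 73.3, and peaks with 1 core whose first AP-1 motif lay up to 10 bp outside (n = 29) had 77.6.

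Most members had a single AP-1 motif. There were 825 with 1 match, 65 with 2 and 2 with 3. All 892 TEAD cores were at different positions, and the members lay in 891 separate regions after overlapping peaks were merged. They were found on 23 chromosomes, with 81 of 1667 peaks on chromosome 1 and 70 of 1728 on chromosome 2. The core read on the plus strand in 454 and on the minus strand in 438.

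The signal value was taken, from the column layout, as a measure of peak strength. It served to ask whether members were stronger TEAD4 sites than peaks with 1 of the motifs. It was higher in both-motif peaks than in each of the 3 comparison classes. The median was 90.0 (interquartile range 60.1 to 153) in both-motif peaks, 79.1 (51.5 to 135) in TEAD-only peaks, 68.6 (48.1 to 112) in AP-1-only peaks and 62.9 (43.1 to 104) in peaks with neither. Peaks with 2 or more cores had a median of 94.9. Odds ratios are given with their 95% confidence interval (CI). The classes overlapped widely, since the weakest member had 27.8 and the strongest 690. Of the members, 65.8% (interval 62.6 to 68.8%) exceeded the list's median of 68.1, against 58.6% of TEAD-only peaks, an odds ratio of 1.36 (95% CI 1.17 to 1.59, Benjamini-Hochberg adjusted p = 0.000200 over 17 tests, two-sided Fisher's exact test). Against AP-1-only peaks (50.5%) the odds ratio was 1.89 (1.62 to 2.19, adjusted p = 2.82e-16, Fisher's exact test), and against peaks with neither (45.4%) it was 2.31 (2.00 to 2.67, adjusted p = 7.62e-31, Fisher's exact test). The difference from TEAD-only peaks was smaller and no longer passed among peaks with the maximal IDR score (odds ratio 1.16, 0.964 to 1.39, adjusted p = 0.184, Fisher's exact test), a score that 86.3% of members and 79.7% of TEAD-only peaks reached. The IDR score measures how well a peak's rank repeated between the replicates. Of the members, 157 (17.6%) were among the 2112 strongest peaks of the list (10.0%).

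**Figure D1:**
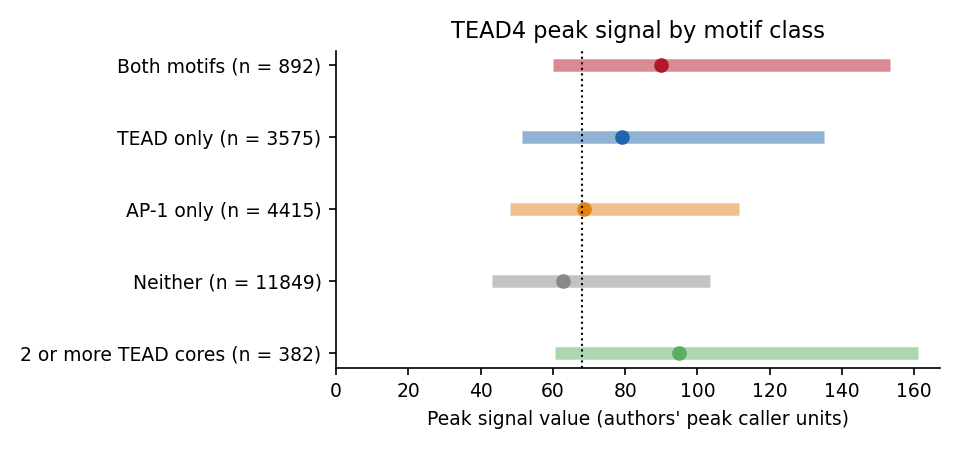
Signal value of TEAD4 peaks (horizontal axis, peak caller units) in each motif class, with the median as a point and the interquartile range as a bar. The dotted line is the median of all peaks, 68.1, and both-motif peaks have a median of 90.0 against 79.1 for TEAD-only and 68.6 for AP-1-only peaks.

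Within the class, the signal was described by the place and number of the motifs, without a test. The median signal was 98.2 for the 530 members with the core within 20 bp of the summit and 62.7 for the 111 with the core more than 50 bp away. Members with 1 AP-1 motif had a median of 90.1 and the 67 with 2 or 3 had 88.7. It was 85.8 where up to 20 bases separated the motifs (n = 276) and 91.5 where more than 60 did (n = 222). Members within 2.5 kb of a TSS had a median of 105 (n = 157) and the others 88.7 (n = 735).

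The TEAD core lay closer to the summit than the AP-1 motif. The summit is the position that the list marks within each peak, and it was taken as an approximation of the site of cross-linking. It lay at the centre of the peak interval in 47.4% of both-motif, 54.8% of TEAD-only and 63.1% of AP-1-only peaks. Whether such central summits are less exact, and whether this affects the distances or the classes, was not tested. The median distance of the motif centre from the summit was 17 bp for the core (interquartile range 10 to 29 bp) and 33 bp for the nearest AP-1 motif (14.75 to 58 bp). Among the members with 1 AP-1 motif and unequal distances, AP-1 was the nearer of the pair in 263 of 816 (32.2%, interval 29.1 to 35.5%), which differed from an even split (two-sided exact binomial test, adjusted p = 1.28e-23). The core was within 20 bp of the summit in 59.4% of both-motif and 57.9% of TEAD-only peaks (odds ratio 1.06, 95% CI 0.916 to 1.23, adjusted p = 0.426, Fisher's exact test). AP-1 was within 20 bp in 33.5% of both-motif and 36.0% of AP-1-only peaks (odds ratio 0.895, 0.769 to 1.04, adjusted p = 0.221, Fisher's exact test). Neither difference passed the test.

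**Figure D2:**
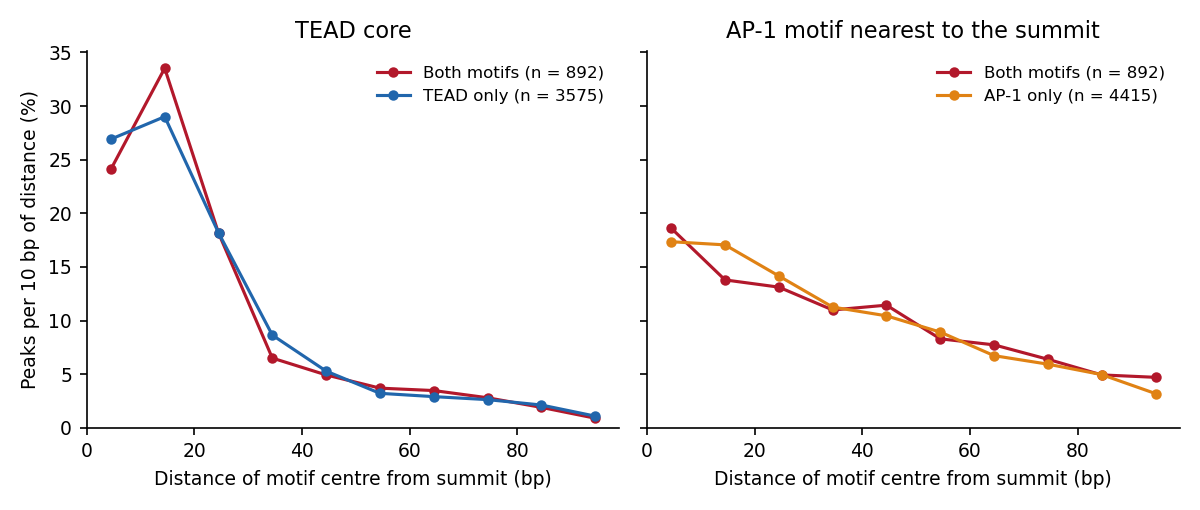
Share of peaks (vertical axis, %) whose motif centre falls in each 10 bp of distance from the summit (horizontal axis, bp), for the TEAD core on the left and the nearest AP-1 motif on the right. In both-motif peaks the core is within 20 bp of the summit in 59.4% and AP-1 in 33.5%, and each curve runs close to that of the class with this motif alone.

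The order of the motifs was uneven. With the core read as ACATTCC, AP-1 lay on its 3′ side in 352 and on its 5′ side in 467 of the 819 members with 1 AP-1 motif and no overlap. The 3′ share was thus 43.0% (interval 39.6 to 46.4%, adjusted p = 0.000188, two-sided exact binomial test against an even split). The middle base of the AP-1 motif, which sets its orientation, was C on the strand of the core in 387 of 825 (46.9%, interval 43.5 to 50.3%, adjusted p = 0.126, exact binomial test) and did not pass.

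The gap between the motifs had a median of 34 bases (interquartile range 13 to 63) and reached 171. Certain short gaps recurred, and the side of AP-1 differed among them. These patterns were noticed in the counts and were not tested. At gaps of 1 to 3 bases, 36 of 41 members had AP-1 on the 5′ side, and 6 further members had the overlap of 1 base. At gaps of 7 and 8 bases the order was mostly the other one, with AP-1 on the 3′ side in 17 of 25 and in 14 of 24 members. In 21 of these 31, the AP-1 motif read TGACTCA on the strand of the core. At 12 bases there were 26 members, with AP-1 on the 5′ side in 16. The 5′ side also prevailed at gaps of 9 to 11 bases (28 of 41) and of 13 bases (12 of 16). Among the 46 flanking windows with 1 core and 1 AP-1 motif, 3 had a gap of 1 to 3 bases and 3 a gap of 7 or 8, too few to compare. Median signal was 88.6 at gaps of 1 to 3, 90.6 at gaps of 7 and 8 and 70.7 at gaps of 12.

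**Figure D3:**
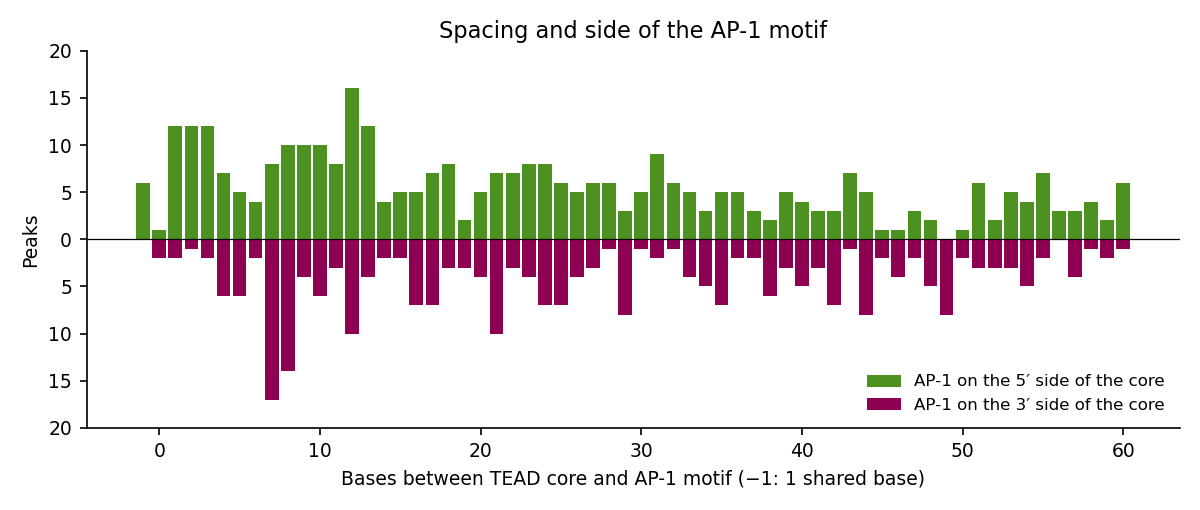
Number of both-motif peaks with 1 AP-1 motif (vertical axis) at each number of bases between TEAD core and AP-1 motif (horizontal axis, up to 60), with AP-1 on the 5′ side of ACATTCC drawn upward and on the 3′ side downward. Gaps of 1 to 3 bases are drawn mostly upward (36 of 41), while gaps of 7 and 8 bases are drawn mostly downward (17 of 25 and 14 of 24).

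The close pairs are shown by 6 members with AP-1 on the 5′ side and at most 3 bases between the motifs. They were chosen after their values were seen, among the strongest of that kind outside UTRs. Each name is that of the nearest protein-coding TSS, a positional label only. This TSS was 119284 bp away for PARD3B, 110163 bp for SLC38A4 and 297467 bp for ZNF521.
PARD3B, chr2:204665431-204665483, plus strand: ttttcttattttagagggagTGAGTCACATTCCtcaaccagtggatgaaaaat
EHD1, chr11:64855104-64855159, plus strand: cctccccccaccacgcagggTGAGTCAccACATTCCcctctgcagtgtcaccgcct
LPIN3, chr20:41329552-41329607, minus strand: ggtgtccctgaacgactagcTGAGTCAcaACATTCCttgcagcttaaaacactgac
SLC38A4, chr12:46942836-46942890, minus strand: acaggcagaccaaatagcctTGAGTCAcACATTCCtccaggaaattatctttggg
ZNF521, chr18:25649785-25649839, plus strand: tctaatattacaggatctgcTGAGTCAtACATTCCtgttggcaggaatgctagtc
KRTAP2-3, chr17:41060435-41060491, minus strand: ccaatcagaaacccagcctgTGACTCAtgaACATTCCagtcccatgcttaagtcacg

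The opposite order at gaps of 7 and 8 bases is shown by 4 members whose AP-1 motif reads TGACTCA, as in 21 of the 31. They were also chosen after their values were seen and are not the strongest. The bases between the motifs differed from member to member. The nearest protein-coding TSS, which gives the name, was 106839 bp away for WNT4, 543017 bp for NECTIN3, 55755 bp for KIF5B and 194021 bp for XPNPEP1.
WNT4, chr1:22250916-22250976, plus strand: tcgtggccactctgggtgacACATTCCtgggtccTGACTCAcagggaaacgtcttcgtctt
NECTIN3, chr3:110526906-110526966, plus strand: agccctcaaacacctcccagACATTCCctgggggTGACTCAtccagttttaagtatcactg
KIF5B, chr10:32112208-32112269, plus strand: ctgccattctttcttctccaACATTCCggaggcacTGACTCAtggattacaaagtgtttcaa
XPNPEP1, chr10:109676853-109676914, minus strand: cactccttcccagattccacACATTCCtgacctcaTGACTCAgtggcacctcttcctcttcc

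Some members shared sequence beyond the motifs. When the 30 bases on either side of the core were compared, 45 members fell into 12 groups. Each member had at least 60% identity with at least 1 other of its group, though not necessarily with all. The largest held 12 members, on 9 chromosomes, with signal values from 28.8 to 286. In a group of 4 members, on 2 chromosomes, 3 had a gap of 2 bases. A group of 7 members, on 5 chromosomes, had the same gap of 12 bases throughout and signal values from 45.7 to 198, and so supplied 7 of the 26 members with that gap. The following 5 of these 7, all with TGACTCA, are printed to show the likeness beyond the motifs. TASP1 and BRI3 were left out. The BRI3 site reads TGAGTCA, and its bases before AP-1 are less like those of the others.
CST7, chr20:24837832-24837897, minus strand: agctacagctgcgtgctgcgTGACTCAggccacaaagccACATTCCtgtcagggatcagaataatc
GLUD2, chrX:121876446-121876511, minus strand: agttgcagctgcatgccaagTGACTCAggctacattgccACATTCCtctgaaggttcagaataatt
ATXN3L, chrX:13287848-13287913, minus strand: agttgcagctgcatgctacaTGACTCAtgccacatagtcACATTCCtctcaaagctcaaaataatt
B9D2, chr19:41368007-41368072, plus strand: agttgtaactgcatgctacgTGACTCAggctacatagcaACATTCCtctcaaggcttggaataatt
TWSG1, chr18:9321112-9321177, minus strand: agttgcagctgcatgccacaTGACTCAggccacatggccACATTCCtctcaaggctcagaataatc

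No annotation of repeats was used here, so these groups are not named. The gene names mark the nearest protein-coding TSS, which was 111294 bp away for CST7 and 828727 bp for GLUD2. Without the members of shared sequence, a check added after the groups were seen, the 3′ share of AP-1 was 44.5% (upper bound of the interval 48.0%, adjusted p = 0.00480, exact binomial test).

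The bases next to the motifs were compared with those in the other classes. The reporter site ends in A after the core, and A followed the core in 38.9% of both-motif and 41.04% of TEAD-only peaks (odds ratio 0.915, 95% CI 0.787 to 1.06, adjusted p = 0.331, Fisher's exact test). T followed it in 41.1% and 42.1%, C in 16.8% and 12.2%, and G in 3.14% and 4.70%, which were not tested. AP-1 was flanked by A before and T after, the palindromic extension, in 10.5% of both-motif and 11.8% of AP-1-only peaks (odds ratio 0.884, 0.701 to 1.12, adjusted p = 0.376, Fisher's exact test). Neither tested comparison passed.

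Motifs of other factor families were also counted. The RUNX motif TGTGGTT, on either strand, is bound by RUNX proteins, transcription factors of bone and blood cell development. It was present in 54 of 892 both-motif peaks (6.05%, interval 4.67 to 7.82%) and in 9.20% of TEAD-only peaks, and was thus less frequent in the former (odds ratio 0.636, 95% CI 0.472 to 0.856, adjusted p = 0.00444, Fisher's exact test). The difference did not pass with all motifs within 50 bp of the summit (odds ratio 0.742, adjusted p = 0.331, Fisher's exact test). Against AP-1-only peaks (7.79%) the odds ratio was 0.763 (0.567 to 1.03, adjusted p = 0.126, Fisher's exact test). The flanking windows held this motif in 3.68%. The E-box CAGATG, bound by basic helix-loop-helix factors, occurred in 20.3% of both-motif, 16.3% of TEAD-only and 18.4% of AP-1-only peaks, and in 13.7% of flanking windows, a comparison that was not tested. Median GC content of the window was 44.3% in both-motif and 45.3% in TEAD-only peaks.

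Both-motif peaks were mainly distal. A TSS of a protein-coding or long noncoding gene lay within 2.5 kb of 157 members (17.6%, interval 15.2 to 20.2%), between 2.5 and 50 kb of 572 (64.1%) and beyond 50 kb of 163 (18.3%). The share within 2.5 kb was lower than among TEAD-only peaks (27.7%, odds ratio 0.558, 95% CI 0.463 to 0.673, adjusted p = 8.89e-10, Fisher's exact test) and among peaks with neither motif (27.5%, odds ratio 0.564, 0.472 to 0.673, adjusted p = 1.22e-10, Fisher's exact test). It did not differ detectably from AP-1-only peaks (18.9%, odds ratio 0.919, 0.761 to 1.11, adjusted p = 0.421, Fisher's exact test). Peaks with 2 or more TEAD cores, of which 14.7% held AP-1, had a similar share of 19.4%, which was not tested. By summit, 59.6% of members were in introns, 34.6% between genes and 5.72% in exons, compared with 60.1%, 31.1% and 8.84% of TEAD-only peaks.

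**Figure D4:**
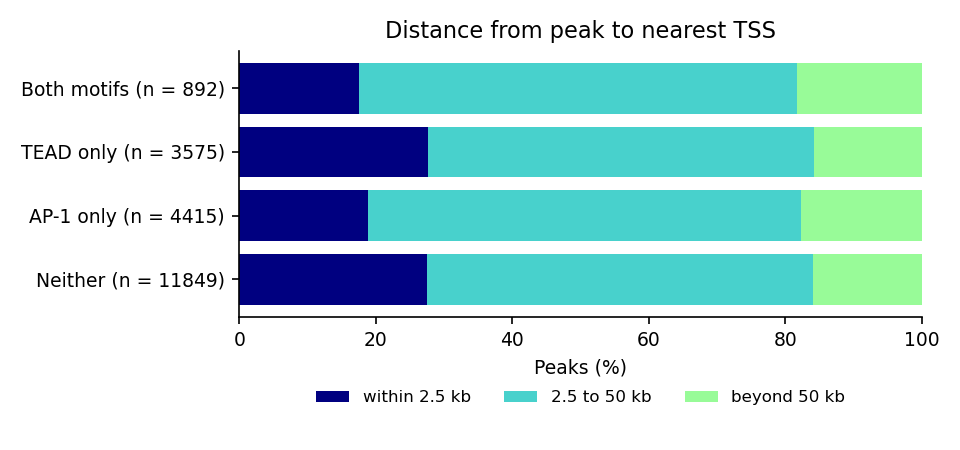
Share of peaks (horizontal axis, %) by distance from the peak to the nearest TSS, for each motif class except peaks with 2 or more TEAD cores. The segment within 2.5 kb covers 17.6% of both-motif and 18.9% of AP-1-only peaks, against 27.7% of TEAD-only peaks and 27.5% of peaks with neither motif.

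Near genes, 961 of 20007 protein-coding genes (4.80%) had a both-motif peak no farther than 50 kb from a TSS, and for 114 (0.57%) the distance was at most 2.5 kb. Only 41 genes had more than 1 within 50 kb. Of these, 38 had 2 and 3 had 3: ITGA1, SRGAP1 and DDX10. ITGA1 encodes the integrin subunit α1 of a collagen receptor, and its both-motif peaks had signal values of 246, 179 and 57.6 among 17 TEAD4 peaks within 50 kb. SRGAP1, a GTPase-activating protein of the Slit-Robo pathway, had 108, 84.2 and 45.6, and DDX10, an RNA helicase, had 138, 88.9 and 52.0.

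The 10 members with the highest signal ranked from 25 to 176 among all 21113 peaks. The strongest, at 690, was in an intron of ADRA1D (α1D-adrenergic receptor), 3335 bp from a TSS, and its motifs were 100 bases apart. The next were at 619, in an intergenic region 25161 bp from PPP1R36 (a regulatory subunit of protein phosphatase), and at 574, nearest to HAO2 (hydroxyacid oxidase) at 88880 bp. The fourth, at 573, was 25561 bp from CCN1, a matricellular protein and classic YAP-TEAD target, with 7 bases between the motifs. The others were nearest to LRRC17 (556), MTCL1 (544), MANF (543), SNTN (506), PEDS1 (475) and TRIP6 (471). Only the TRIP6 peak, for a LIM domain protein of focal adhesions, overlapped a protein-coding TSS. In 8 of the 10 the core was nearer to the summit than AP-1, the exceptions being HAO2 and MTCL1. The nearest gene is a positional label and need not be the regulated one.

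Nearby genes were read from 12 lists with 177 genes in all, of which 10 lists cover TEAD and AP-1 factors and stellate cell biology and the rest cover hepatocytes and blood or Kupffer cells. Of these genes, 23 (12.99%) had a both-motif peak within 50 kb, beside 4.80% of all protein-coding genes, and 141 (79.7%) had a TEAD4 peak of any class, beside 55.3%. These are counts without a test. Within 2.5 kb of a TSS, TGFBI, CALD1 and ITGB5 had one.

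Among 24 YAP-TEAD target genes, 6 had a both-motif peak within 50 kb (25%), beside 4.80% of all genes. Any TEAD4 peak was near 22 (91.7%), beside 55.3%. CCN1 was the strongest. RBMS3, an RNA-binding protein, had one in its intron at 302 with a gap of 88 bases. ASAP1, an Arf GTPase-activating protein, had one at 264 and DOCK5, a guanine nucleotide exchange factor, 2 at 212 and 47.5. The weaker DOCK5 peak lay in an intron of KCTD9, 44608 bp from a DOCK5 TSS. MYOF, a membrane repair protein, had one at 170. CCN2, also called connective tissue growth factor, had one at 89.5, located in an intron of the noncoding gene LINC01013 and 3399 bp from its own TSS, and its motifs overlapped by 1 base. Both-motif peaks were found within 50 kb of 0 of 10 genes for TEAD, YAP and VGLL proteins and of 0 of 11 AP-1 subunit genes, lists too short to tell from the 4.80% of all genes. A TEAD4 peak of any class was near 7 of the former and all 11 of the latter, beside 55.3% of all genes.

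Among matrix genes, 2 of 19 fibrillar collagen and cross-linking genes had a both-motif peak within 50 kb (10.5%), beside 4.80% of all genes. COL5A1 had one in its intron at 180, and COL1A1 had 2, at 112 and 62.6. The stronger COL1A1 site was 8795 bp from a TSS, with 3 bases between the motifs, in an exon of a noncoding gene. The weaker was 8360 bp from a COL1A1 TSS but nearest to SGCA, at 3146 bp. Of 16 matrix glycoprotein genes only TGFBI, a TGF-β-induced protein that binds integrins, had one. Its peak of 340 overlapped a TSS, with the core 3 bp from the summit and AP-1 7 bases away on its 5′ side. Of 12 protease and inhibitor genes, PLAUR (urokinase receptor) had one at 337, lying in an intron of the neighboring gene CADM4.

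Integrin and focal adhesion genes had both-motif peaks within 50 kb in 3 of 15 (20%), beside 4.80% of all genes: ITGA1, ITGB5 and ITGAV. The integrin β5 gene ITGB5 had 2 in its intron, at 127 and 37.5, and the first was 69 bp from a TSS. ITGAV had one at 38.5. Of 15 contractile and cytoskeletal genes, CALD1 (caldesmon) had one at 151 in its intron, 347 bp from a TSS, and ACTN4 (α-actinin 4) had one at 99.5. Of 16 genes for growth factors and receptors, 3 had one (18.8%): PDGFC at 295, PDGFD at 136 and TGFB1 at 79.3. The TGFB1 site lay in an intron of TMEM91 and belonged to the group of 7 with shared sequence, where it is named by its nearest gene B9D2. Of 11 mesenchymal transcription factor genes, TWIST2 had one at 120 and SNAI2 at 87.9.

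Genes of other liver cells were counted in the same way, beside the 4.80% of all genes with a both-motif peak within 50 kb. Of 16 hepatocyte genes only SERPINA1 (α1-antitrypsin) had a both-motif peak within 50 kb (6.25%), at 176 and 9207 bp from a TSS, and it was the only TEAD4 peak of any class near these 16 genes. Of 12 blood and Kupffer cell genes 2 had one (16.7%): CD163, whose peak of 214 lay in an exon of CD163L1, and SPI1, whose peak of 138 lay in an exon of SLC39A13. A TEAD4 peak of any class was near 9 of these 12 genes (75%), beside 55.3% of all genes.

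**Figure D5:**
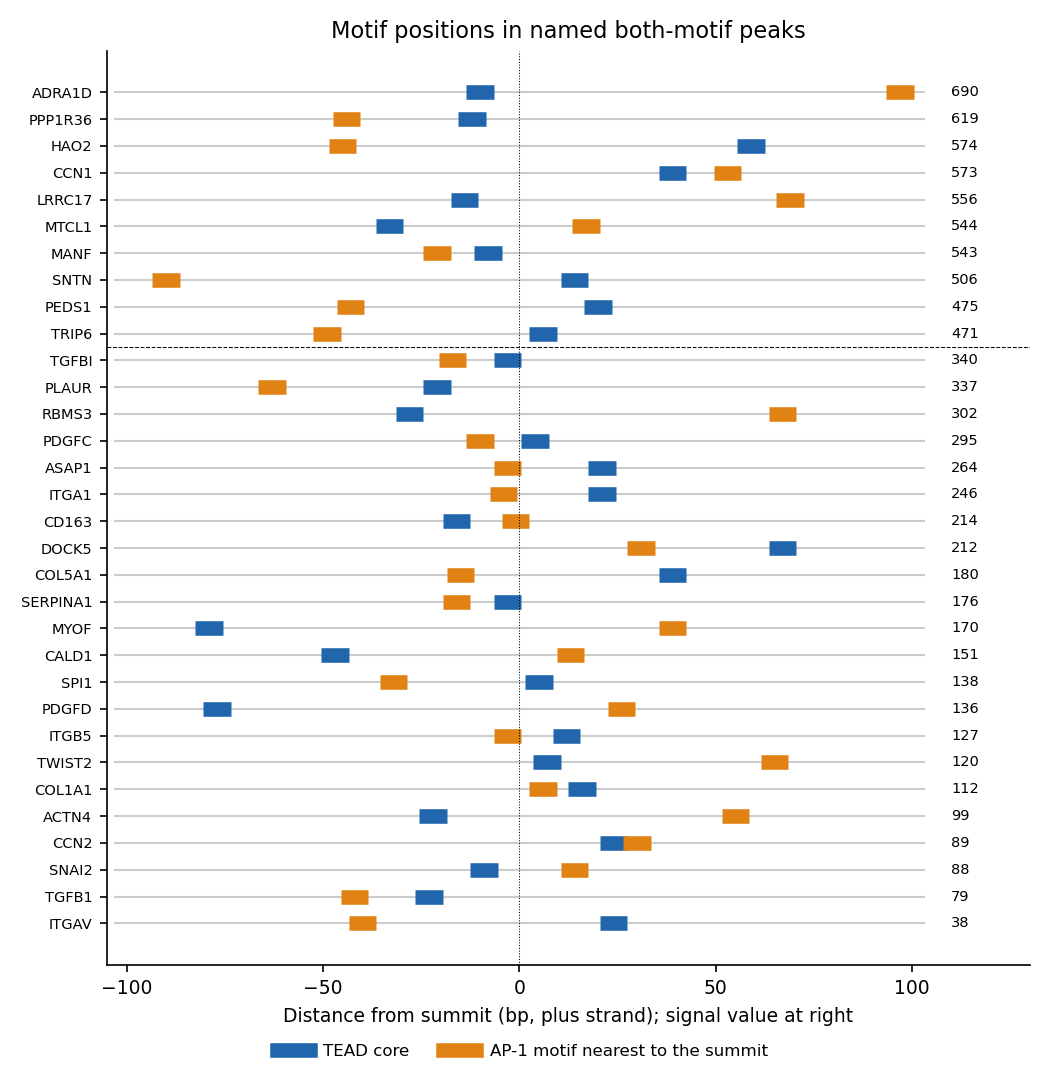
Positions of the TEAD core and of the AP-1 motif nearest to the summit (horizontal axis, bp from the summit on the plus strand) in the 10 strongest both-motif peaks above the dashed line and, below it, in the strongest both-motif peak near each further gene of the lists. Signal values stand at the right and run from 690 for ADRA1D to 38 for ITGAV, and each motif is drawn to scale.

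The study also measured, in LX-2 cells, which regions lost the active mark H3K27ac after inhibition of O-GlcNAc transferase, and linked them to genes. Of its 1781 list entries, 1180 matched a protein-coding gene (1157 genes), so the values hold for the matched part only. Such a gene lay within 50 kb of 110 both-motif peaks (12.3%, interval 10.3 to 14.7%), 14.9% of TEAD-only peaks (odds ratio 0.801, 95% CI 0.643 to 0.998, adjusted p = 0.0920, Fisher's exact test) and 13.6% of AP-1-only peaks (odds ratio 0.893, 0.718 to 1.11, adjusted p = 0.376, Fisher's exact test). Neither difference passed the test. At 2.5 kb the first did (odds ratio 0.561, adjusted p = 0.0156, Fisher's exact test), and with GC content and TSS proximity in a logistic model at 50 kb it was 0.935 (adjusted p = 0.560). By gene, 125 of the 1157 (10.8%) had a both-motif peak within 50 kb, beside 4.80% of all protein-coding genes. Any TEAD4 peak was near 88.1%, beside 55.3%. The study also listed the 500 genes most upregulated by the inhibitor in LX-2 cells, of which 471 matched. Of these 471, 17 had a both-motif peak (3.61%) and 60.9% had any TEAD4 peak, near the shares of all genes. Downregulated genes were not counted here.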

How the data were processed

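TEAD4 ChIP-seq reads from LX-2 cells were mapped by the authors to hg38 with Chromap (v0.1.3-R256), and peaks of replicates 1 and 3 were taken through the ENCODE IDR pipeline (v2.2.1). The peak caller is not given in the sources used here. The deposited columns used were a scaled IDR score, the signal value per peak, its −log10 q-value and the offset of its summit, all as the authors' pipeline gave them (meanings inferred from the column layout and the values). Motifs were searched on both strands in the hg38 sequence, and TSSs came from GENCODE release 44. Distances ran from the peak interval. Shares were compared over peaks by two-sided Fisher's exact tests and exact binomial tests, with Benjamini-Hochberg adjustment over 17 tests and a threshold of 0.05. Neighboring peaks are not independent, so p-values are approximate, and Wilson 95% intervals cover counting error only. Calculations ran in Python 3.11.15 (scipy 1.17.1, statsmodels 0.14.6, pandas 2.3.3, numpy 2.4.6), with figures by matplotlib 3.10.9, and the code was tested on simulated data. Alternatives changed the motif window, the set of peaks, the distances and the covariates. Named were the 10 strongest members, every list gene with a member within 50 kb (up to 30), every list gene with one within 2.5 kb and the genes with the most members. Rule, members, gene lists and tests were chosen with earlier results of these data known.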

Additional observations from a re-analysis of the deposited data

How the results depend on the processing

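Of 144 alternative settings, 142 planned and 2 added after the data were seen, 138 concerned a test, and 131 of these kept the direction and the side of the threshold. The other 6 concerned the number of members, which stayed within 1.5 times in 5. Restricting peaks to the highest IDR score gave an odds ratio of 1.16 for signal against TEAD-only peaks. With motifs within 50 bp of the summit the members numbered 524, the RUNX odds ratio against TEAD-only peaks was 0.742, and that of the base A after the core was 0.801 and passed (Fisher's exact test, adjusted p = 0.0425). Within 10 bp of the summit, the odds ratios for the core (0.902) and AP-1 (1.01) changed direction and, as at 20 bp, did not pass. The odds ratio for H3K27ac loss against TEAD-only peaks passed with motifs within 150 bp (0.794) and with genes within 2.5 kb (0.561), both without adjustment for TSS proximity. The cause of these changes was not tested. The other results held in every setting run: the TSS odds ratio against TEAD-only peaks ran from 0.453 to 0.697, the share with AP-1 nearer from 29.3% to 39.6% and the 3′ share of AP-1 from 42.5% to 45.5%. No paired analysis was possible because replicates are combined in the list, so none was left out either. Depth is unknown.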
